A study of Mus musculus with 4 samples.

Results

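The genes described here are 10 regulators of neural and photoreceptor splicing chosen by name: the Musashi proteins Msi1 and Msi2, the polypyrimidine tract-binding proteins Ptbp1, Ptbp2 and Ptbp3, the microexon regulators Srrm3 and Srrm4, Nova1, Nova2 and Rbfox2. They are 10 of 16702 gene identifiers in a long-read count table of the mouse retina. Counts were held by 9 of them, in 53 of the table's 44325 isoforms, and Nova2 is not analysed here. The cells came from wild-type male C57BL6/J mice with no transgene or treatment, dissociated with papain. One library was from postnatal day 40 and another had no age in its labels, both without enrichment. A library from postnatal week 8 was labelled CD73 enrichment, where the protocol removed CD73-positive photoreceptors on magnetic beads, and a library from postnatal month 4 was enriched for CD90.2-positive cells. Single-cell cDNA from the droplet-based 10x method was read as whole molecules on a nanopore sequencer.

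The table has 1 column for each of 6 cell classes: rods, cones, bipolar cells, amacrine cells, ganglion cells and Müller glia. No column names a library, so each class is 1 sample without replicates, and class cannot be told apart from age or enrichment. Differences are therefore described by size, with 95% intervals that cover counting error only, and no test was made. Column totals ran from 3509890 counts in ganglion cells to 55437340 in rods, and 3 counts correspond there to 0.855 and 0.0541 CPM, the counts per 1000000 counts of the column. For each of the 6 classes, all 6 of 6 defining markers were highest in the column of that name. Rod markers nevertheless summed to 20.7% of their rod level in cones, 6.91% in Müller glia, 1.89% in bipolar cells and 0.633% in amacrine cells, and were at 0 in ganglion cells.

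Alternative splicing in neurons is set by RNA-binding proteins that recognise short sequences near exons. Ptbp1 is known for repressing neuronal exons in non-neuronal cells, and Ptbp2 takes over from it in developing neurons. Srrm4 and its paralog Srrm3 promote the inclusion of microexons, Rbfox and Nova proteins activate or repress exons according to where they bind, and Musashi proteins are required for the inclusion of photoreceptor exons. Several of these genes also carry exons whose use decides whether their own transcript is productive.

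The best known of those exons is shared by the Ptbp genes and is shown first, because its skipping in Ptbp1 differed between classes. It is 34 nt long, so leaving it out shifts the reading frame. The exon lies at chr10:79862014-79862047 on the plus strand in Ptbp1, at chr3:119724612-119724645 on the minus strand in Ptbp2 and at chr4:59485339-59485372 on the minus strand in Ptbp3 (GRCm38, called mm10). Capitals mark the 19 of 34 bases that all 3 share in these GENCODE M21 transcripts.
Ptbp1 34-nt exon: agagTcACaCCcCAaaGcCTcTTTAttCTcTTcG
Ptbp2 34-nt exon: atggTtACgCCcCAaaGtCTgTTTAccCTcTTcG
Ptbp3 34-nt exon: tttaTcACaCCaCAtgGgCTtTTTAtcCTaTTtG
Ptbp1 and Ptbp2 are identical at 26 of the 34 bases, Ptbp1 and Ptbp3 at 22, and Ptbp2 and Ptbp3 at 21.

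Other coding segments whose use is compared between classes are a 57-nt exon of Msi1 at chr5:115447130-115447186, plus strand, and a 16-nt exon of Srrm4 at chr5:116454673-116454688, minus strand. The remaining segments lie between 2 alternative 3′ splice sites, and capitals mark the AG in front of the downstream site. They are at chr5:115450787-115450819 (Msi1, plus strand), chr11:88348939-88348992 (Msi2), chr3:119726206-119726220 (Ptbp2) and chr15:77098073-77098084 (Rbfox2), the last 3 on the minus strand. The segments of 57, 33, 54, 15 and 12 nt keep the reading frame and the 16-nt exon does not.
Msi1 57-nt exon: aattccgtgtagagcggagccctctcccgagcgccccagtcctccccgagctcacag
Msi1 33-nt segment: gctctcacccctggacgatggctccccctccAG
Msi2 54-nt segment: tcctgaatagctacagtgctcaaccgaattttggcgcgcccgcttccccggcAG
Ptbp2 15-nt segment: ggcttcctgttgcAG
Rbfox2 12-nt segment: gtctccctttAG
Srrm4 16-nt exon: gaggagtccttgcttg

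Msi1 was the member most concentrated in photoreceptors. Msi1 (ENSMUSG00000054256.11, chr5:115429599-115455698) encodes an RNA-binding protein with a pair of RNA recognition motifs in its N-terminal part. Its gene level was 28.3 CPM in rods (26.9 to 29.7), 16.4 in cones (13.6 to 19.6), 3.23 in amacrine cells (2.75 to 3.78), 1.48 in bipolar cells (1.07 to 2), 1.14 in Müller glia (0.459 to 2.35) and 0.285 in ganglion cells (0.00721 to 1.59). Rods stood 1.72-fold above cones and 8.74-fold above amacrine cells. The interval of bipolar cells overlapped that of Müller glia, and the latter overlapped that of ganglion cells. Müller glia had 4.04% of the rod level of Msi1, below the 6.91% found there for rod markers, whereas bipolar cells had 5.24%, above their 1.89% of rod markers. The part of rod RNA in these low levels was not tested.

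Msi2 (ENSMUSG00000069769.13, chr11:88339382-88718513), the broadly expressed paralog, was highest in another class. Its level was 40.8 CPM in amacrine cells (39 to 42.7), 22.7 in rods (21.4 to 23.9), 22.5 in bipolar cells (20.8 to 24.3), 18.5 in cones (15.5 to 21.9), 17.1 in ganglion cells (13 to 22) and 10.8 in Müller glia (8.32 to 13.7). From rods downward each class overlapped the next in its interval. Msi1 accordingly made up 55.5% of the Msi1 and Msi2 counts in rods (1567 of 2823) and 47.1% in cones (120 of 255). In the other classes its share was 9.59% in Müller glia, 7.34% in amacrine cells, 6.17% in bipolar cells and 1.64% in ganglion cells. The difference between rods and amacrine cells was 48.2 points, and 40.1 points when counts were divided by the mean length of each gene's models. Because 12 of the 13 Msi1 isoforms have no Ensembl transcript identifier, restricting both genes to identified isoforms removed the difference (-0.665 points).

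**Figure D1:**
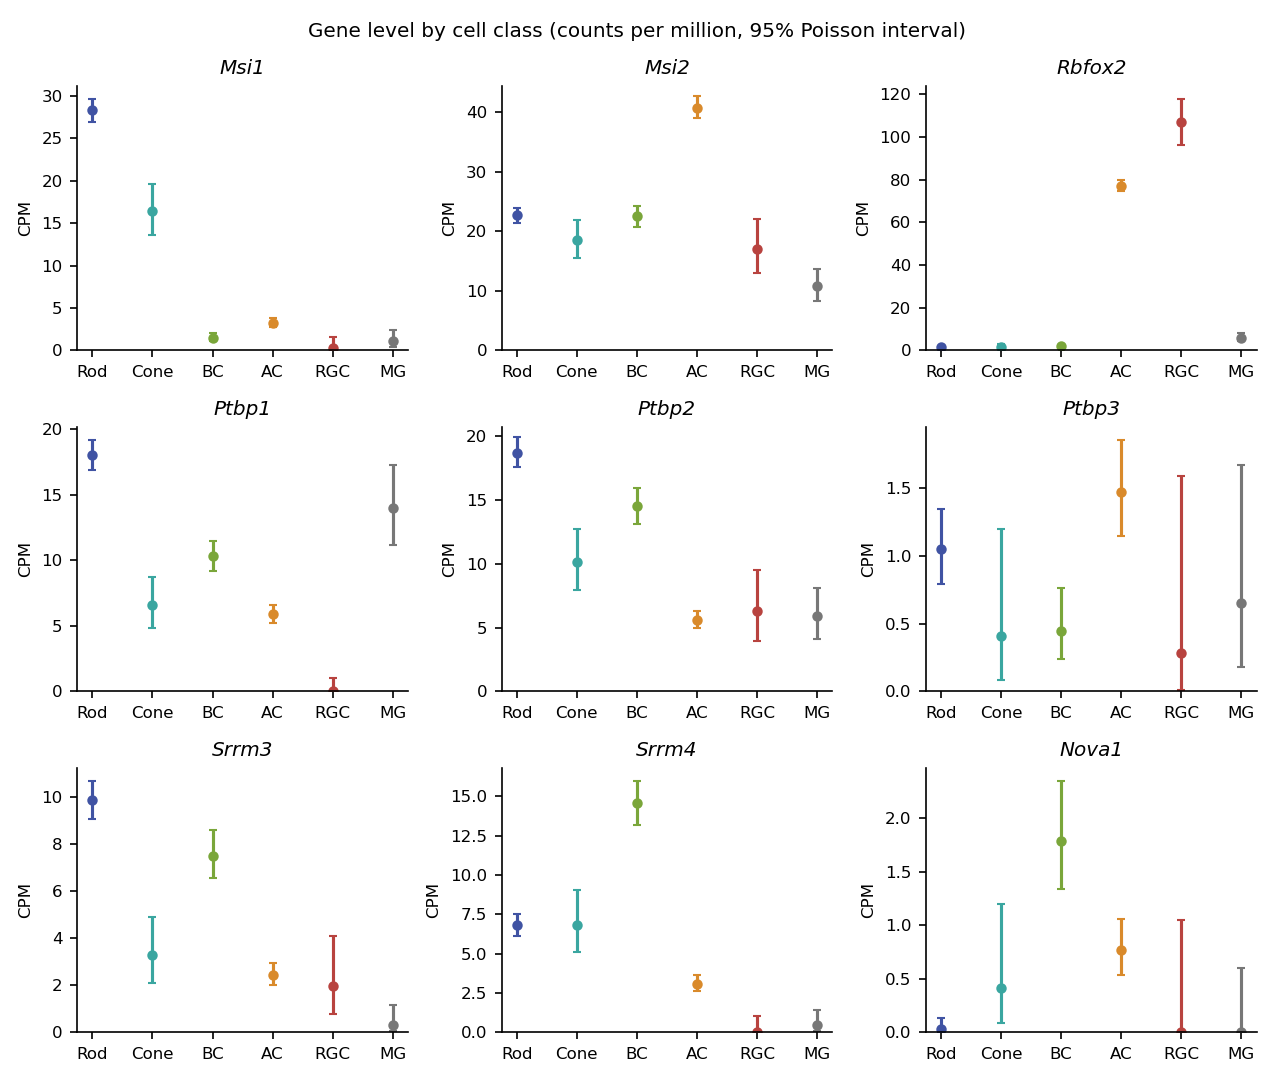
Gene level in CPM (linear axes from 0, a scale of its own for each gene) of the 9 members with counts in 6 cell classes, with 95% Poisson intervals. Msi1 is highest in rods at 28.3 CPM, Rbfox2 is at 77.1 in amacrine and 107 in ganglion cells, and Ptbp1 and Srrm4 are at 0 in ganglion cells (AC, amacrine; BC, bipolar; RGC, ganglion; MG, Müller glia).

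The Msi1 transcripts of photoreceptors and amacrine cells also started at different exons. An internal first exon of 136 nt, chr5:115434996-115435131, opened 829 of 1567 Msi1 counts in rods (52.9%, 50.4 to 55.4) and 94 of 120 in cones (78.3%, 69.9 to 85.3). It opened 27 of 43 in bipolar cells (62.8%, 46.7 to 77) and 3 of 147 in amacrine cells (2.04%, 0.423 to 5.85). The interval of amacrine cells lay apart from those of the other classes with 20 or more counts. In Müller glia 5 of 7 counts began there.

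All 4 models with this exon began at the same base as the GENCODE transcript ENSMUST00000136586.5, which GENCODE tags as having a start supported by cap analysis and whose coding start lies in its exon 2. That start codon is in frame with the full-length transcript ENSMUST00000150779.7 and lies 309 of its 1086 coding nt, or 103 codons, downstream of the usual one. The models lack 5 exons of the full-length transcript. Cap structures were not measured, so a start within a longer RNA and a transcription start cannot be told apart in these models.

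The most upstream of the common first exons, chr5:115429699-115429806, had the opposite distribution. It was used in 82 of 147 counts in amacrine cells (55.8%, 47.4 to 64), 8 of 43 in bipolar cells (18.6%, 8.39 to 33.4), 106 of 1567 in rods (6.76%, 5.57 to 8.12) and 0 of 120 in cones (upper bound 3.03%). A first exon between them, chr5:115430605-115430704, was used in 42.2% of counts in amacrine cells, 39.7% in rods, 21.7% in cones and 18.6% in bipolar cells. For the upstream and the middle first exon, too, all models began at 1 base that starts an annotated transcript. A shared annotated base is therefore not particular to the internal first exon. The isoform with the full-length Ensembl identifier held 57 of 156 Msi1 counts in amacrine cells (36.5%, 29 to 44.6) and 29 of 1567 in rods (1.85%, 1.24 to 2.65).

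The 57-nt exon of Msi1 was included in 119 of 147 counts in amacrine cells (81%, 73.7 to 87) and in 638 of 1567 in rods (40.7%, 38.3 to 43.2). Cones included it in 61 of 120 (50.8%, 41.6 to 60.1), bipolar cells in 12 of 43 (27.9%, 15.3 to 43.7) and Müller glia in 7 of 7. Inclusion in amacrine cells again lay above the intervals of rods, cones and bipolar cells. Among transcripts from the middle first exon alone, amacrine cells included it in 61 of 62 counts (98.4%) and rods in 258 of 622 (41.5%, 37.6 to 45.5). Among rod transcripts from the internal first exon the share was 351 of 829 (42.3%, 38.9 to 45.8). From the upstream first exon the shares were lower than from the middle one in both classes, with 29 of 106 rod counts (27.4%, 19.1 to 36.9) and 57 of 82 amacrine counts (69.5%, 58.4 to 79.2).

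By contrast, the 33-nt segment of Msi1 varied little. It was present in 72.8% of counts in rods (70.5 to 75), 72.5% in cones (63.6 to 80.3), 79.1% in bipolar cells (64 to 90) and 70.1% in amacrine cells (62 to 77.3), with all intervals overlapping.

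**Figure D2:**
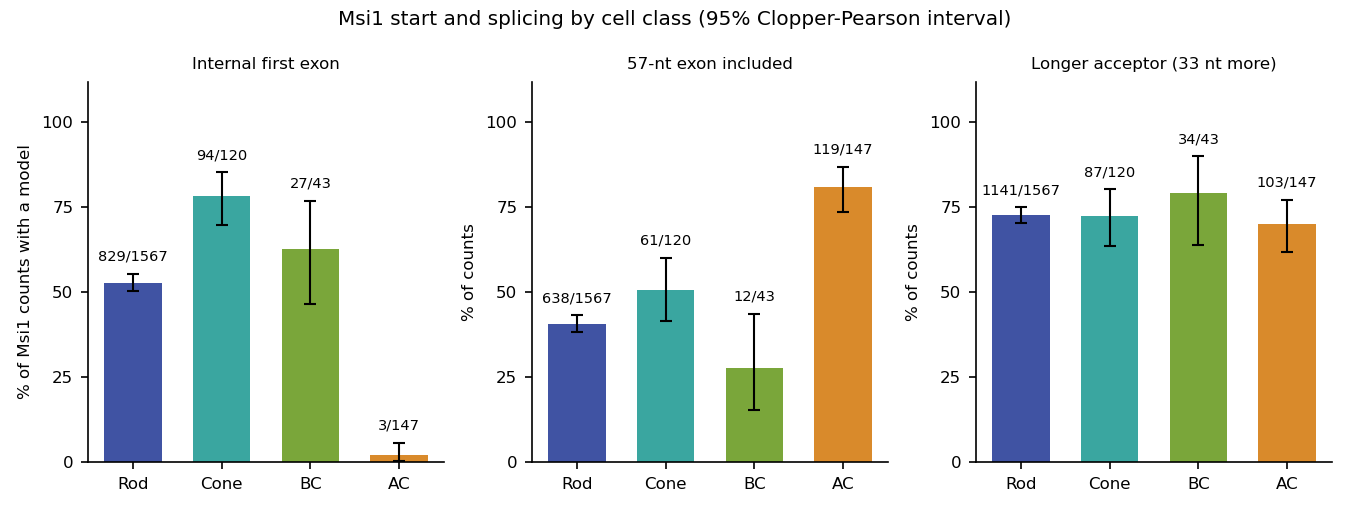
Share of Msi1 counts (percent, from 0) that begin at the internal first exon, include the 57-nt exon or carry the 33-nt segment, in 4 classes with 20 or more counts; error bars are 95% Clopper-Pearson intervals and counts stand above the bars. Amacrine cells sit at 2.04% for the internal start and 81% for the 57-nt exon, while the 33-nt segment stays between 70.1% and 79.1%.

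**Figure D3:**
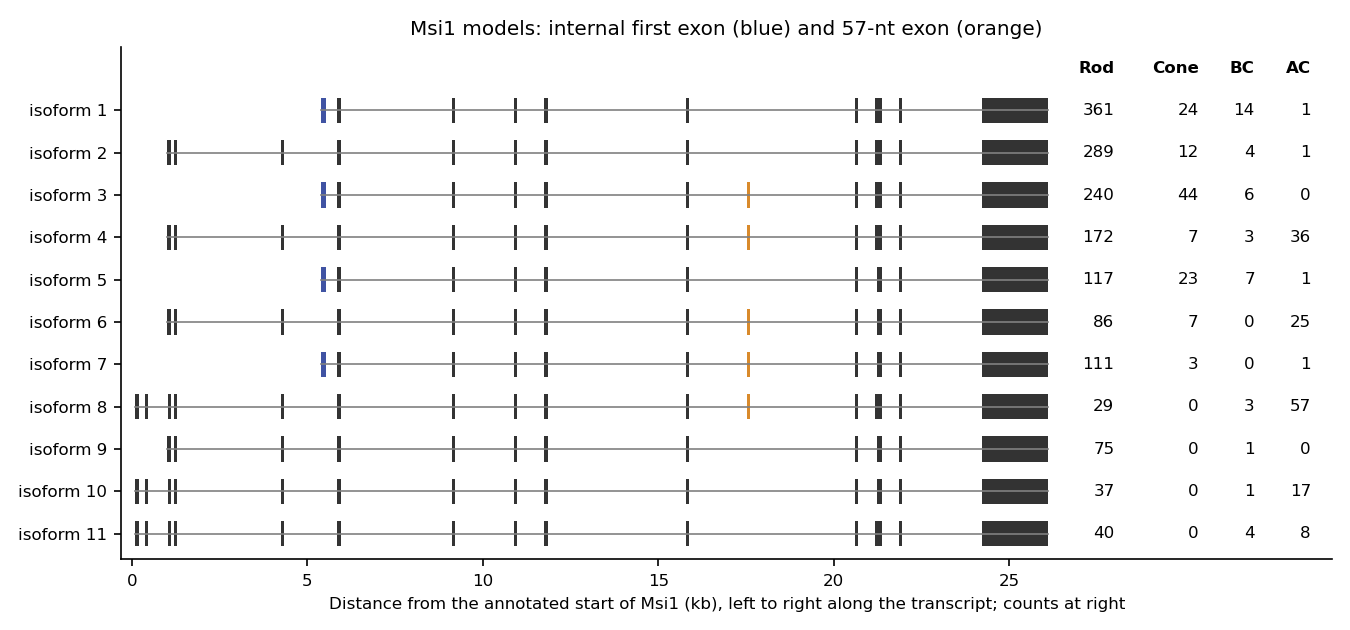
Exon structure of 11 Msi1 models by distance from the annotated gene start in kb, numbered by total counts, with the counts in rods, cones, bipolar and amacrine cells at the right. Isoform 1, with the internal first exon (blue) and without the 57-nt exon (orange), has 361 counts in rods and 1 in amacrine cells; the isoform without a model and 1 that begins far upstream, with 10 rod counts, are not drawn.

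The 54-nt segment of Msi2 was carried by 56.4% of counts in amacrine cells (54.2 to 58.7), 49.9% in bipolar cells (46 to 53.9), 41.2% in cones (32.7 to 50.2) and 40.4% in rods (37.6 to 43.2). Müller glia were at 41.9% (29.5 to 55.2) and ganglion cells at 26.7% (16.1 to 39.7). The amacrine interval lay above those of rods, cones and ganglion cells. The other alternative exons of Msi2, of 63 and 82 nt, were included in at least 93.9% of counts in every class.

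Ptbp1 (ENSMUSG00000006498.16, chr10:79854427-79864771) was detected in rods as well as in glia. Its level was 18 CPM in rods (16.9 to 19.2), 14 in Müller glia (11.2 to 17.3), 10.3 in bipolar cells (9.17 to 11.5), 6.57 in cones (4.84 to 8.71) and 5.87 in amacrine cells (5.2 to 6.59). Ganglion cells had 0 counts. By the limit of 3 counts, 0.855 CPM, rods were at least 21.1-fold higher, and the Poisson upper limit there was 1.05 CPM. Some other splicing regulators were also at 0 in ganglion cells, such as Srrm2, with 6.86 to 15 CPM in every other class. Whether counts were lost from the ganglion cell column was not tested. Intervals overlapped between rods and Müller glia, between Müller glia and bipolar cells, and between cones and amacrine cells. The order of rods and Müller glia turned under median-of-ratios scaling. The Müller column also held pigment epithelium markers at a summed 8522 CPM, microglia markers at 1231 and pericyte markers at 253, and their part in the Ptbp1 level was not tested.

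Ptbp2 (ENSMUSG00000028134.11, chr3:119718742-119784466) stood at 18.7 CPM in rods (17.6 to 19.9), 14.5 in bipolar cells (13.1 to 15.9), 10.1 in cones (7.95 to 12.7), 6.27 in ganglion cells (3.93 to 9.49), 5.87 in Müller glia (4.11 to 8.13) and 5.58 in amacrine cells (4.93 to 6.28). Rods and bipolar cells did not overlap, and from cones downward neighbours did. Ptbp3 (ENSMUSG00000028382.15, chr4:59471868-59549364), the family member known from blood cells, was near the counting limit. Its 150 counts gave 1.47 CPM in amacrine cells (1.15 to 1.86), 1.05 in rods (0.794 to 1.35) and 0.285 to 0.652 elsewhere, with each class overlapping its neighbour.

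As a share of the counts of the 3 Ptbp genes, Ptbp1 was 68.3% in Müller glia (86 of 126, 59.4 to 76.3), 47.7% in rods, 38.4% in cones, 40.8% in bipolar cells, 45.4% in amacrine cells and 0 of 23 in ganglion cells. The Müller interval lay above those of all neuron classes. Ptbp2 took 22 of 23 counts in ganglion cells (95.7%, 78.1 to 99.9) and between 28.6% and 59.2% in the other classes. Ptbp3 reached 11.4% in amacrine cells (9.01 to 14.2) and was at most 4.35% elsewhere.

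The 34-nt exon of Ptbp1 was skipped in 43 of 283 counts in amacrine cells (15.2%, 11.2 to 19.9) and in 5 of 86 in Müller glia (5.81%, 1.91 to 13). Skipping was found in 2 of 999 counts in rods (0.2%, 0.0243 to 0.721), 0 of 299 in bipolar cells (upper bound 1.23%) and 0 of 48 in cones (upper bound 7.4%). The skipping isoform is ENSMUST00000057343.15, which GENCODE marks for nonsense-mediated decay, the pathway that degrades messages with an early stop. Its coding sequence ends in exon 9 of 12. In Ptbp2 none of the 6 models skipped the corresponding exon and 5 contained it, with 808 counts through it in rods and 228 in amacrine cells (upper bound 1.6%). Of the 5 models of Ptbp3, 3 contained it and none skipped it. They held 41 counts in rods (upper bound 8.6%) and 24 in amacrine cells (upper bound 14.2%, within the Ptbp1 interval there).

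A 78-nt coding exon of Ptbp1, chr10:79860117-79860194, differed less between classes. Its inclusion was 37.5% in cones (24 to 52.6), 32.1% in bipolar cells (26.8 to 37.7), 28.6% in amacrine cells (23.4 to 34.3), 26.3% in rods (23.6 to 29.2) and 25.6% in Müller glia (16.8 to 36.1). All 5 intervals overlapped.

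In Ptbp2 a difference lay upstream of the 34-nt exon. A pair of neighbouring exons of 173 and 144 nt was skipped together, which removes 317 nt and shifts the frame. This isoform made up 65 of 228 spanning counts in amacrine cells (28.5%, 22.7 to 34.8) and 72 of 402 in bipolar cells (17.9%, 14.3 to 22). It made up 32 of 808 in rods (3.96%, 2.72 to 5.55) and 1 of 64 in cones, and neither 31 counts of Müller glia nor 22 of ganglion cells held it. Amacrine and bipolar cells both lay above rods, and the intron that joins across the pair is not in GENCODE M21.

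A short Ptbp2 transcript of 4 exons, ENSMUST00000198403.1, ends at an early last exon of 178 nt, chr3:119760554-119760731. It held 230 of 1038 counts in rods (22.2%, 19.7 to 24.8), 41 of 269 in amacrine cells (15.2%, 11.2 to 20.1), 10 of 74 in cones (13.5%), 5 of 36 in Müller glia (13.9%), 18 of 420 in bipolar cells (4.29%, 2.56 to 6.69) and 0 of 22 in ganglion cells. Bipolar cells lay below rods and amacrine cells. The 15-nt segment of Ptbp2 was present in 20.6% of counts in amacrine cells (15.6 to 26.5), 11.7% in bipolar cells (8.72 to 15.2) and 11.4% in rods (9.28 to 13.8), and in 7 of 22 in ganglion cells.

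**Figure D4:**
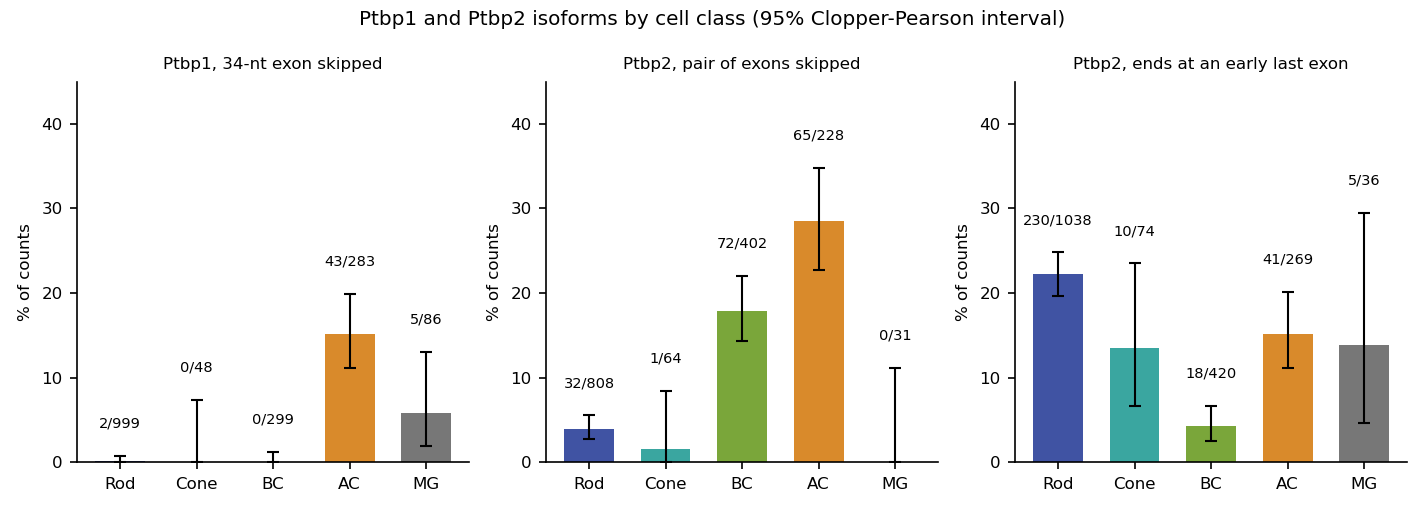
Share of counts (percent, from 0) that skip the 34-nt exon of Ptbp1, skip the exon pair of Ptbp2 or end at the early last exon of Ptbp2, in 5 classes, with 95% Clopper-Pearson intervals and counts above the bars. Amacrine cells are at 15.2% and 28.5% for the 2 skipping events, against 0.2% and 3.96% in rods.

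Ptbp3 transcripts ended early more often in amacrine cells. The last exon at chr4:59492485-59493360 closed 47 of 71 counts there (66.2%, 54 to 77) and 17 of 58 in rods (29.3%, 18.1 to 42.7). A 34-nt exon near the 5′ end of Ptbp3, chr4:59546149-59546182, was included in 45 of 58 counts in rods (77.6%, 64.7 to 87.5) and 38 of 71 in amacrine cells (53.5%, 41.3 to 65.5), with overlapping intervals. No other class had 20 counts.

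Srrm3 (ENSMUSG00000039860.19, chr5:135806890-135874772) and Srrm4 (ENSMUSG00000063919.11, chr5:116439275-116591817) were ordered differently across classes. Srrm3 was at 9.87 CPM in rods (9.06 to 10.7), 7.51 in bipolar cells (6.55 to 8.58), 3.28 in cones (2.1 to 4.89), 2.45 in amacrine cells (2.02 to 2.93), 1.99 in ganglion cells (0.802 to 4.11) and 0.326 in Müller glia (0.0395 to 1.18). Srrm4 was at 14.6 CPM in bipolar cells (13.2 to 16), 6.84 in cones (5.08 to 9.02), 6.8 in rods (6.13 to 7.52), 3.09 in amacrine cells (2.61 to 3.63) and 0.489 in Müller glia (0.101 to 1.43). Srrm4 had 0 counts in ganglion cells, and bipolar cells were at least 17.1-fold higher by the limit of 3 counts (Poisson upper limit 1.05 CPM). As for Ptbp1, a loss of counts from that column was not tested. Rods and bipolar cells did not overlap for either gene. Srrm3 formed 59.2% of the pair's counts in rods (547 of 924, 56 to 62.4), 44.2% in amacrine cells (38.1 to 50.4), 34% in bipolar cells (30.3 to 37.8) and 32.4% in cones (22 to 44.3). Rods thus lay above those 3 classes, and Müller glia and ganglion cells had 5 and 7 counts of the pair.

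None of the 7 isoforms of the Srrm genes has an Ensembl identifier, and no model was full length. The 3′ end of Srrm3 and Srrm4 encodes the domain known to be needed for microexon inclusion. Of the 15 exons of the Srrm3 transcript ENSMUST00000144211.1, 2 models end within exon 9 or at an extended exon 11, and the other covers only exons 12 to 15. The latter held 31 of 118 Srrm3 counts in amacrine cells (26.3%, 18.6 to 35.2), 18 of 218 in bipolar cells (8.26%, 4.97 to 12.7), 33 of 547 in rods (6.03%, 4.19 to 8.37), 0 of 24 in cones and 5 of 7 in ganglion cells. Amacrine cells lay above rods and bipolar cells. No model of Srrm4 overlapped exons 10 to 13 of ENSMUST00000076124.6, so levels of the full-length messages are not given by these models.

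Srrm3 also began at different exons. The first exon at chr5:135806897-135807040 opened 62% of counts in rods (57.8 to 66.1), 46.6% in amacrine cells (37.4 to 56) and 39.4% in bipolar cells (32.9 to 46.3). The one at chr5:135818502-135818616 opened 52.3% in bipolar cells (45.4 to 59.1), 32% in rods (28.1 to 36.1) and 27.1% in amacrine cells (19.3 to 36.1). Each start belongs to 1 model with its own end, so start and end were not measured apart.

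The 16-nt exon of Srrm4 was included in 347 of 365 counts in bipolar cells (95.1%, 92.3 to 97.1), 44 of 49 in cones (89.8%, 77.8 to 96.6), 281 of 363 in rods (77.4%, 72.8 to 81.6) and 95 of 128 in amacrine cells (74.2%, 65.7 to 81.5). Bipolar cells lay above rods and amacrine cells. In GENCODE this exon belongs to ENSMUST00000222119.1, marked for nonsense-mediated decay, whose coding sequence ends in the exon that follows. The models compared here end in that following exon, so inclusion in full-length Srrm4 messages was not measured. An early last exon of Srrm4 at chr5:116475201-116475247 was used in 53 of 418 counts in bipolar cells (12.7%, 9.64 to 16.3) and 7 of 370 in rods (1.89%, 0.764 to 3.86).

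Rbfox2 (ENSMUSG00000033565.18, chr15:77078990-77307004), a regulator that binds GCAUG elements, was found mostly in amacrine and ganglion cells. Its level was 107 CPM in ganglion cells (96 to 118), 77.1 in amacrine cells (74.6 to 79.6), 6.03 in Müller glia (4.25 to 8.32), 1.93 in bipolar cells (1.46 to 2.51), 1.64 in cones (0.849 to 2.87) and 1.43 in rods (1.13 to 1.78). Amacrine cells stood 54.1-fold above rods and at 72.4% of ganglion cells. Ganglion cell markers in the amacrine column were at 3.92% of their own column, and amacrine markers in the ganglion column at 6.07%. The part of such RNA in the Rbfox2 levels was not tested. Bipolar cells, cones and rods overlapped one another.

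Among the 11 isoforms of Rbfox2, 3 have no model and held 21.7% of counts in amacrine cells (809) and 20.6% in ganglion cells (77). All 3 had 0 counts in rods. Shares of its exons are therefore of the counts with a model, 2911 in amacrine and 297 in ganglion cells. They leave out the isoforms not seen in rods. ENSMUST00000228087.1 led with 1151 counts in amacrine and 139 in ganglion cells. Another 4 isoforms with 666 counts in amacrine cells had 1 count in ganglion cells between them. One of those skips a 93-nt exon, chr15:77105577-77105669, known in the Rbfox genes to encode part of the RNA recognition motif. It was skipped in 150 of 2911 counts in amacrine cells and in 0 of 297 in ganglion cells, so inclusion was 94.8% (94 to 95.6) in the former and complete in the latter, with a lower bound of 98.8%. A 51-nt exon, chr15:77231387-77231437, was included in 435 of 708 counts in amacrine cells (61.4%, 57.7 to 65), 66 of 66 in ganglion cells and 11 of 29 in rods (37.9%, 20.7 to 57.7). All counts that included the 51-nt exon began at the first exon chr15:77245490-77245885. From that start, inclusion was 435 of 592 in amacrine cells and 11 of 12 in rods. The 116 amacrine and 17 rod counts that began further upstream all skipped the exon. Its lower share in rods therefore goes with the first exon used. Whether the isoforms without a model hold this exon is not known.

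The main first exon of Rbfox2, chr15:77153530-77153812, opened 75.7% of counts with a model in amacrine cells (74.1 to 77.2), 77.8% in ganglion cells (72.6 to 82.4), 63.3% in rods (51.7 to 73.9) and 56 of 56 in bipolar cells. The far upstream one, chr15:77306364-77306605, opened 17 of 79 counts in rods (21.5%, 13.1 to 32.2), 116 of 2911 in amacrine cells (3.98%, 3.3 to 4.76) and 0 of 297 in ganglion cells. The 12-nt segment was present in 24.9% of counts in amacrine cells (23.4 to 26.6), 20.5% in ganglion cells (16.1 to 25.6) and 26.6% in rods (17.3 to 37.7), with overlapping intervals. A 3-nt segment at chr15:77117065-77117067 was kept in 84.3% in amacrine cells, 80.1% in ganglion cells, 87.3% in rods and 27 of 56 in bipolar cells (48.2%, 34.7 to 62). All 8 models contained a 40-nt exon and none a 43-nt exon of the annotation.

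**Figure D5:**
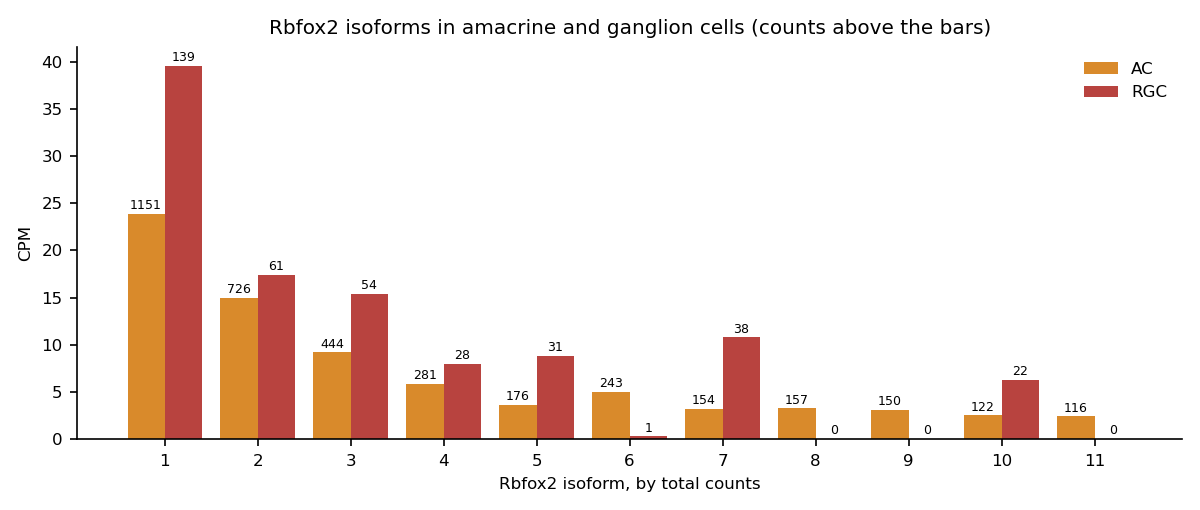
Level in CPM (from 0) of the 11 Rbfox2 isoforms, ordered by total counts, in amacrine (AC) and ganglion (RGC) cells, with counts above the bars. Isoforms 6, 8, 9 and 11 have between 116 and 243 counts in amacrine cells and 0 or 1 in ganglion cells, whose column is far shallower.

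Nova1 (ENSMUSG00000021047.7, chr12:46694517-46818929), a neuronal splicing factor, had 94 counts in all. It stood at 1.79 CPM in bipolar cells (1.34 to 2.35), 0.767 in amacrine cells (0.54 to 1.06), 0.411 in cones (0.0847 to 1.2) and 0.0361 in rods (0.00437 to 0.13). It had 0 counts in Müller glia and ganglion cells, with Poisson upper limits of 0.601 and 1.05 CPM. Bipolar cells lay above every other class. Its only model, of 4 exons, lacks a 144-nt coding exon, chr12:46816886-46817029, and held 36 of 52 counts in bipolar cells and 24 of 37 in amacrine cells. The annotated transcript with that exon, ENSMUST00000021438.7, has no model here. It held 13 of 37 counts in amacrine cells (35.1%, 20.2 to 52.5) and 1 of 52 in bipolar cells (1.92%, 0.0487 to 10.3). An unannotated isoform without a model held 15 of 52 in bipolar cells and 0 of 37 in amacrine cells.

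Between groups of classes, members were compared by the mean of log2(CPM + 1) with a threshold of 2-fold. In rods and cones against amacrine, bipolar and ganglion cells, 2 of the 8 members with 100 or more counts were higher, against 20.7% of all 10643 genes compared. These were Msi1, by 3.25 on the log2 scale, and Ptbp1, by 1.49. Rbfox2 was the 1 member lower, at -3.52, against 17.9% of all genes. Srrm4 was at 0.97, Ptbp2 at 0.71, Srrm3 at 0.62, Ptbp3 at 0.03 and Msi2 at -0.28. The median of the members was 0.67, and 0.09 over all genes. Without the ganglion cell column, where Ptbp1 and Srrm4 were at 0, Ptbp1 was at 0.45 and Srrm4 at -0.03.

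In Müller glia against the 5 neuron classes, Ptbp1 was the 1 member higher, by 1.22, against 17.0% of all genes. Lower were 4 members, against 18.2% of all genes: Srrm3 at -1.99, Srrm4 at -1.81, Msi1 at -1.45 and Msi2 at -1.04. Ptbp2 was at -0.68, Rbfox2 at -0.64 and Ptbp3 at -0.02. The median was -0.86 for the members and -0.22 over all genes, and the latter became -0.00 under median-of-ratios scaling, where Msi2 was at -0.76. Without the ganglion cell column, Ptbp1 was at 0.55 and Rbfox2 at 0.18.

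For isoforms, no member of 9 met the rule of a different leading isoform with a share at least 50 points apart, against 25% of 7472 genes. Of 11 member exons comparable between rods and amacrine cells, 1 differed by 25 points or more, the 57-nt exon of Msi1 by -40.2, against 19.2% of all exons. Another 4 lay just under that threshold, the Ptbp2 pair at 24.5 each, the 5′ exon of Ptbp3 at 24.1 and the 51-nt exon of Rbfox2 at -23.5. The Rbfox2 difference goes with the first exon used, as described above. A difference of 25 points or more was found at 0 of 5 alternative 3′ splice sites, against 12.5%. First exons differed by that much in 1 of 4 member genes, Msi1, against 30.8% of genes, and last exons in 1 of 4, Ptbp3, against 33.9%.

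Other splicing regulators were taken from a list of 33, of which 24 had 100 or more counts. In photoreceptors 4 of the 24 were higher and 8 lower, against 20.7% and 17.9% of all genes, with a median of 0.05. Rbfox1, the paralog of Rbfox2, was lower by the most, at -3.94, with 121 CPM in amacrine and 46.4 in ganglion cells against 0.397 in rods, followed by Khdrbs2 at -3.61. Elavl1 was at 2.35 and Celf1 at 2.31, the latter with 57.6 CPM in rods and 5.06 in amacrine cells. In Müller glia 2 were higher and 10 lower, against 17.0% and 18.2% of all genes, with a median of -0.81. Rest, a repressor of neuronal genes, was at 3.29 and Qk, a glial splicing factor, at 1.01, while Elavl3 was at -2.67 and Rbfox1 at -2.56. Qk had 4.4 CPM in Müller glia (27 counts) and 2.18 to 2.55 in rods, cones, bipolar and amacrine cells. Its 0 counts in ganglion cells enter the 1.01.

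Exons of genes known as targets of these regulators were read in the same way. Of 32 listed genes 18 had an alternative exon with enough counts, and in 13 of them inclusion ranged over 25 points or more between classes, against 45.8% of 4033 genes. By regulator these were 6 of 9 genes listed for Musashi, 3 of 4 for Ptbp and 4 of 5 for Srrm3 and Srrm4. The Musashi genes were listed as hosts of photoreceptor exons, and all lists were chosen with earlier results of these data known. The choice of genes therefore favoured wide ranges, and the shares are no test of the regulators. In each gene the exon with the widest range in these data was read, which need not be the exon known to be regulated. Those of the Srrm3 and Srrm4 list were of 6 nt in Apbb1, 9 in Ap1s2, 33 in Unc13b, 51 in Cpeb4 and 135 in Dnm1. Microexons are taken here as 27 nt or fewer. A 27-nt exon of Atp1b2, listed for Musashi, was included in 99% of counts in rods and 99.1% in cones, 29.9% in bipolar cells, 3.61% in amacrine cells and 0.909% in ganglion cells. Müller glia included it in 6.98%. A 30-nt exon of Ttc8, a gene of photoreceptor cilia, was at 98.9% in rods, 97.4% in cones, 39.1% in bipolar cells and 8.83% in amacrine cells, with Müller glia at 31.4%. In Impdh1 a 17-nt exon was at 95.4% in rods, 92% in cones, 76.3% in bipolar cells, 19.9% in amacrine cells and 0 of 44 in ganglion cells. Müller glia were at 86.1% (79.8 to 91). Rod markers stood at 6.91% of their rod level in Müller glia. The part of rod RNA in the Müller shares of Ttc8 and Impdh1 was not tested. Atp1b2, Ttc8 and Impdh1 had the widest ranges of the 9 genes listed for Musashi. The exon of Slc17a7 was also higher in rods (79.4%) and cones (68.8%) than in bipolar cells (12.4%). That of Ppp3cc was at 92.1% in rods, 69.2% in bipolar cells and 22.3% in amacrine cells. The remaining genes were ordered differently. The exon of Cabp4 was lowest in cones (87.4%, against 96% in rods), and that of Cep290 was at 68.4% in rods and 29 of 29 in bipolar cells. That of Prom1 was at 6.52% in rods, 0 of 207 in cones, 0 of 35 in bipolar cells and 0 of 32 in amacrine cells. That of Cc2d2a differed by 0.926 points between rods and bipolar cells. All Musashi-listed genes beyond the first 3 were named after their values were seen. In the clathrin light chains, listed for Ptbp, a 54-nt exon was included in 12.2% of Clta and 14.6% of Cltb counts in Müller glia, and in 80.9% to 98.9% in the neuron classes.

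Genes whose level across the 6 classes most resembled each member were named by Pearson's r of log2(CPM + 1) among 9862 other genes with a symbol and 100 or more counts, as a description over 6 points. Nearest to Msi1 were Wdr41 (r = 0.995) and Chrac1 (0.993), and nearest to Msi2 Chtop (0.99) and Jade3 (0.988). Slc37a3 (0.996) and Atg2a (0.994) lay nearest to Ptbp1, Gm21985 (0.994) and Zbtb24 (0.992) to Ptbp2, and Tom1 (0.987) and Cdk20 (0.983) to Ptbp3. Fto (0.991) and Itfg2 (0.983) came first for Srrm3, Sez6l2 (0.998) and Ezh2 (0.997) for Srrm4, Psd3 (0.994) and Wscd2 (0.993) for Nova1, and Mei4 (0.998) and Txnl4a (0.997) for Rbfox2. For Rbfox2, 15 genes reached 0.99, and by Spearman's rho only 1 of the 18 named genes stayed among the nearest.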

How the data were processed

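The 4 long-read single-cell cDNA libraries (SQK-PCS111 kit, PromethION R9.4.1 flow cells, per the labels' protocols) were deposited as 1 table of whole-number counts per isoform and cell class, made by the authors. Isoform models carry FLAIR as their source, per the file headers, and the build is mm10 per the submitters' processing notes. The aligner, cell calling and collapsing by molecular identifier are not given in the sources used here, so counts may be reads rather than molecules. Of the 53 member isoforms, 47 have a model and at least 1 rod count, and those without a model have 0 rod counts. Shares of starts and exons in the other classes therefore leave out isoforms not seen in rods. Of their 130 junctions, 123 are in GENCODE M21 for the same gene.

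Isoform counts were summed per gene and divided by the column total (CPM). Exact Poisson intervals were used for CPM and exact Clopper-Pearson intervals for shares, at 95%. An exon is included by models with it as an internal exon and skipped by models whose intron spans it, with 20 or more counts asked per class. Contrasts used a pseudocount of 1 CPM and genes with 100 or more counts. Class names and symbols came from the column names and GENCODE M21. The 2-fold and 25-point rules were checked on simulated data with counting noise only and with changes larger than the thresholds. The 2-fold check used well-covered genes, so it does not cover members with few counts, such as Ptbp3. Tools were Python 3.11.15, numpy 2.4.6 and scipy 1.17.1. Scaling by trimmed means of M values (TMM) and by medians of ratios, other pseudocounts, folds and minimum counts, and leaving out the cone or ganglion cell column were tried as alternatives.

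All members were described, with the leading isoforms, exons skipped by another model of the gene, the 2 most similar genes, the 2 other regulators with the largest difference per direction, and 5 target genes. Members and lists were chosen with earlier results of these data known, and the 25-point threshold for local events was set after the counts had been seen. Nova2 and protein sequences were not analysed here.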

Additional observations from a re-analysis of the deposited data

How the results depend on the processing

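No paired analysis was possible because no column carries a replicate number, and leaving out a library could not be run for the same reason. Of 509 recomputed values 370 stayed within the counting interval or 1.5-fold of the main value, 138 moved beyond it and 1 turned its sign. The sign turned for the Msi1 share, rods minus amacrine cells (-0.665 points with Ensembl-identified isoforms; 40.1 points per kilobase). The 2 members higher in photoreceptors became 1 with a pseudocount of 5 CPM (9.61% of all genes), 1 without the ganglion cell column (13.7%), 4 without the cone column (27.2%) and 5 at 1.5-fold (33.2%). The 1 member higher in Müller glia became 0 with a pseudocount of 5 CPM (11.1% of all genes) and 0 without the ganglion cell column (15.2%), and the 4 lower became 0 with a pseudocount of 5 CPM (8.04%). Members with a different leading isoform rose from 0 to 6 at 25 points, a setting for which the share of all genes is not given here. Of the 18 similar genes 1 was shared under Spearman's rho and 11 with a minimum of 500 counts. The 2 other regulators higher in Müller glia became 1 with TMM factors (16.2% of all genes) and 4 with median-of-ratios factors (21.2%). These alternatives were chosen after seeing the data. The causes were not tested. Depth limits most values in ganglion cells, Müller glia and cones, where several members have fewer than 20 counts.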

Other observations

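Of the member junctions outside GENCODE M21, 7 in number, the most used was the Ptbp2 intron that joins across the pair of exons described above, with 72 counts in bipolar cells, 65 in amacrine cells and 32 in rods. A Rbfox2 junction from the first exon at chr15:77245490-77245885 had 157 counts in amacrine cells, 1 in rods and 0 in ganglion cells. In Msi2, 2 such junctions had 56 and 44 counts in amacrine cells and 32 and 35 in rods. The Nova1 junction past its 144-nt exon had 36 counts in bipolar cells and 24 in amacrine cells. The last 2, in Msi1, belong to 1 model that begins at a first exon, chr5:115359097-115359268, upstream of the annotated gene, with 10 counts, all in rods.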
